A study of Mus musculus with 27 samples.

Results

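The 10 genes Ripk1, Ripk3, Mlkl, Zbp1, Fadd, Tradd, Cflar, Birc2, Birc3 and Xiap, which encode the core of the TNF death complex and of necroptosis, were chosen by name among the 22524 genes counted in every library, and all 10 were found by symbol. These genes were chosen with earlier results of these data known, so how many of them differed is not a test of them. They were followed in 27 mouse RNA sequencing libraries. Organoids, three-dimensional cultures of intestinal epithelium grown from crypt stem cells, were established from the distal jejunum of 9 male C57BL/6J wild-type mice aged 8 to 12 weeks, with 3 cohoused littermates from each of SR, SE and GF, the first pair being specific pathogen-free (SPF) facilities and the last a germ-free one, and were harvested at passage 5 to 8. Each organoid culture (Z908 to Z910 from SR, Z911 to Z913 from SE and Z917 to Z919 from GF) and each of 3 cultures (M1 to M3) of m-ICc12 cells, a mouse line of immortalised epithelium from the small intestine, gave a pair of libraries, 1 with the label untreated and 1 with the label TNF (5 ng/mL over 8 hr). Mouse embryonic fibroblasts (MEFs) gave 3 untreated libraries, R1 to R3. The m-ICc12 cultures stand for a single line, so that the spread among them is that of cultures and not of animals. The study describes the MEFs as primary cells of C57BL/6 origin. How many lines or embryos they come from is not given, so their spread cannot be read as that of animals either.

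The treatment label and the name of the deposited data differ in all 12 culture pairs, since the data name that carries the code T, used by the study for TNF, belongs to the library labelled untreated. The known TNF target gene Nfkbia, which encodes the NF-κB inhibitor IκBα, was 6.32-fold higher in the organoid libraries labelled untreated and 4.37-fold higher in the m-ICc12 libraries labelled untreated (adjusted p = 6.4e-17 and 0.00040, edgeR). All 4 target genes checked (Nfkbia, Nfkb2, Relb and Tnfaip3) were higher in the libraries labelled untreated in both culture types, which goes against the labels. Directions are therefore given strictly by label in all that follows, and a value called higher in the libraries labelled untreated is higher in those with the T-coded data names.

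TNF binding to its receptor TNFR1 assembles a membrane complex in which the adaptor Tradd and the kinase Ripk1 are joined by the ubiquitin ligases cIAP1 and cIAP2, the products of Birc2 and Birc3, and this complex signals to NF-κB. When ubiquitination of Ripk1 fails, a cytosolic complex of Ripk1, Fadd and caspase-8 can form and trigger apoptosis, which the caspase-8-like protein cFLIP (Cflar) restrains, while Xiap inhibits executioner caspases. If caspase-8 is blocked, Ripk1 and the kinase Ripk3 form the necrosome, and Ripk3 phosphorylates the pseudokinase Mlkl, which permeabilises the plasma membrane in the lytic death called necroptosis. Zbp1, a sensor of Z-form nucleic acids, can activate Ripk3 without TNF. In the intestinal epithelium of mice, loss of caspase-8, Fadd or cFLIP is known to cause death of epithelial cells, and Paneth cells are a known site of Ripk3 expression.

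Ripk3, Mlkl, Birc2 and Birc3 were the members whose levels separated the culture types most plainly or moved with the label, and their promoters are shown for that reason. Each sequence is the RefSeq window of 300 bases (250 before to 50 after the annotated start, build GRCm38.p6), printed 5′ to 3′ on the strand of the gene with CG dinucleotides in capitals. The windows lie on the minus strand at chr14:55788808-55789107 (Ripk3), chr8:111338156-111338455 (Mlkl), chr9:7837008-7837307 (Birc2, the further upstream of its 2 windows) and chr9:7873121-7873420 (Birc3).
Ripk3: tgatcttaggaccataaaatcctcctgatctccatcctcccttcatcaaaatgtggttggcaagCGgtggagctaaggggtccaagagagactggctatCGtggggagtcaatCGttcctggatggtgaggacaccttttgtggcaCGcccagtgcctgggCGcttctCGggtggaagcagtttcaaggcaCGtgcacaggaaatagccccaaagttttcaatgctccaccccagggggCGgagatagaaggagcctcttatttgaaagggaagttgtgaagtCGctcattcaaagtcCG
Mlkl: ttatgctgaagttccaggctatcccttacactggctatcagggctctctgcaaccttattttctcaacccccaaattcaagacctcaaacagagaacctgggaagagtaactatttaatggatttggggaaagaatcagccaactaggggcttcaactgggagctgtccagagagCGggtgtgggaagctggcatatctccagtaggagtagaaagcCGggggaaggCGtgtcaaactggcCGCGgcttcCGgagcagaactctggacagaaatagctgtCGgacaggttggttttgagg
Birc2: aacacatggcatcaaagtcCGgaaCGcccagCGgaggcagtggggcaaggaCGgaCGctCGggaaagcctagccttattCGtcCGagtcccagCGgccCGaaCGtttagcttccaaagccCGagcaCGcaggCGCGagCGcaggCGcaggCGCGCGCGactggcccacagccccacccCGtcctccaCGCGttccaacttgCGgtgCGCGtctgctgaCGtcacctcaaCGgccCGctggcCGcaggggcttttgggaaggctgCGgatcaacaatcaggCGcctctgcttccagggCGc
Birc3: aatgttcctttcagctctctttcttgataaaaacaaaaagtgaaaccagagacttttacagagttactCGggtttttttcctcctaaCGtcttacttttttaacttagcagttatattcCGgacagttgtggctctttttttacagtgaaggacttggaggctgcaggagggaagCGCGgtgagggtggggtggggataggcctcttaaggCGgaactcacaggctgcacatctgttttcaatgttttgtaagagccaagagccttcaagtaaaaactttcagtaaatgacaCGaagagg

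The Birc2 window holds 34 CG dinucleotides, the Ripk3 window 10, and the Mlkl and Birc3 windows 7 each, beside a median of 7 (quartiles 3 and 20) over all 32851 windows. Birc2 and Birc3 are neighbours in the same orientation on chromosome 9 (7818227 to 7837064 and 7848699 to 7873186), yet their printed windows stand at the 92.3 and 47.9 percentile of CG content. The other Birc2 window holds 21 CG dinucleotides and stands at the 75.2 percentile. Short motifs were searched on both strands of the 12 windows of the 8 members found in the table. GGGNNTTCC, a form of the NF-κB motif held by 5.82% of all windows, occurs in the printed Birc2 window, read on the opposite strand from 230 bases before the start, and in no window of Birc3 or of another member. This holds only for this spelling, which was chosen after the values were seen. Another spelling of the motif matched windows of other members. The interferon-type letters GAAANNGAA (8.56% of all windows) occur in the Ripk3 window, from base 15 after the start, and in windows of Cflar, Ripk1 and Xiap. The letters TTCNNNGAA (8.3%) occur in a window of Ripk1, TATAAA (13.6%) in windows of Cflar and Xiap, and the GC box GGGCGG (35.7%) in windows of Birc2, Fadd, Ripk1, Ripk3 and Xiap. The Mlkl and Birc3 windows hold none of them. The first pair of motifs can overlap each other's letters, and a match describes the sequence only. Tradd and Zbp1 have no window in the table.

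Between 6071103 and 43843615 reads were counted on genes per library. A floor of 3 counts, used for counting error, corresponds to 0.0684 to 0.494 CPM (counts of a gene relative to the total of its library) before TMM scaling. The levels given for genes are CPM scaled by the TMM method. The shallowest library, M1 labelled TNF-treated, had 13.5% of its counts on a single gene, Lars2, and M3 labelled TNF-treated had 4.44%, while this share was at most 0.688% in the other 25 libraries. The organoids expressed all 6 epithelial and all 5 intestinal markers checked, with Epcam at 883 to 1108 CPM in the libraries labelled untreated. The m-ICc12 cells had the keratins Krt8 (1138 to 1585 CPM) and Krt18 but little of Epcam (2.06 to 6.81 CPM), Cdh1, Cdx2 and Lgals4, together with Vim at 1841 to 3002 CPM, so that several defining markers of the labelled cell type were nearly absent. The keratin Krt19 was 4.73-fold lower in m-ICc12 cells labelled untreated than in MEFs (adjusted p = 0.0034, edgeR). Of the 6 epithelial markers, only Krt8 and Krt18 were called higher than in MEFs, and Epcam, Cdh1 and Cldn7 were not called. Of the 5 intestinal markers, Vil1 and Cdh17 were 25.5- and 6.13-fold higher in m-ICc12 cells labelled untreated than in MEFs (adjusted p = 7.5e-07 and 1.6e-05, edgeR). The other 3 were not called. Of 6 fibroblast markers tested, 5 were lower than in MEFs, such as Col1a1 (2600-fold), and Vim was not called. In MEFs, Col1a1 reached 1797 to 2402 CPM, while Thy1 was at 0 and Pdgfra at 0.115 to 1.57 CPM. Leukocyte markers (6 genes) summed to at most 14.5 CPM in any library. In such bulk samples, fewer cells of a type and less RNA per cell cannot be told apart. The p-values set a difference between groups against the spread between these libraries only.

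The first question was how the death complex is equipped in each culture type. It was addressed with the libraries labelled untreated of organoids and m-ICc12 cells and with the MEFs. The MEFs were untreated, whereas the TNF targets go against the labels of the other cultures. Culture type and TNF exposure can therefore not be told apart when these libraries are compared with MEFs. The 3 culture types carried different complements of necrosome genes. Organoids had Ripk3 with hardly any Mlkl, m-ICc12 cells had Mlkl with hardly any Ripk3, and MEFs had both. The cIAP genes differed in opposite ways, with Birc3 higher in organoids than in m-ICc12 cells and Birc2 higher in m-ICc12 cells. Cflar was highest in m-ICc12 cells. The upstream adaptor genes Tradd and Fadd were highest in organoids, while Ripk1 and Xiap differed least. The plot of member levels by library shows these patterns.

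**Figure D1:**
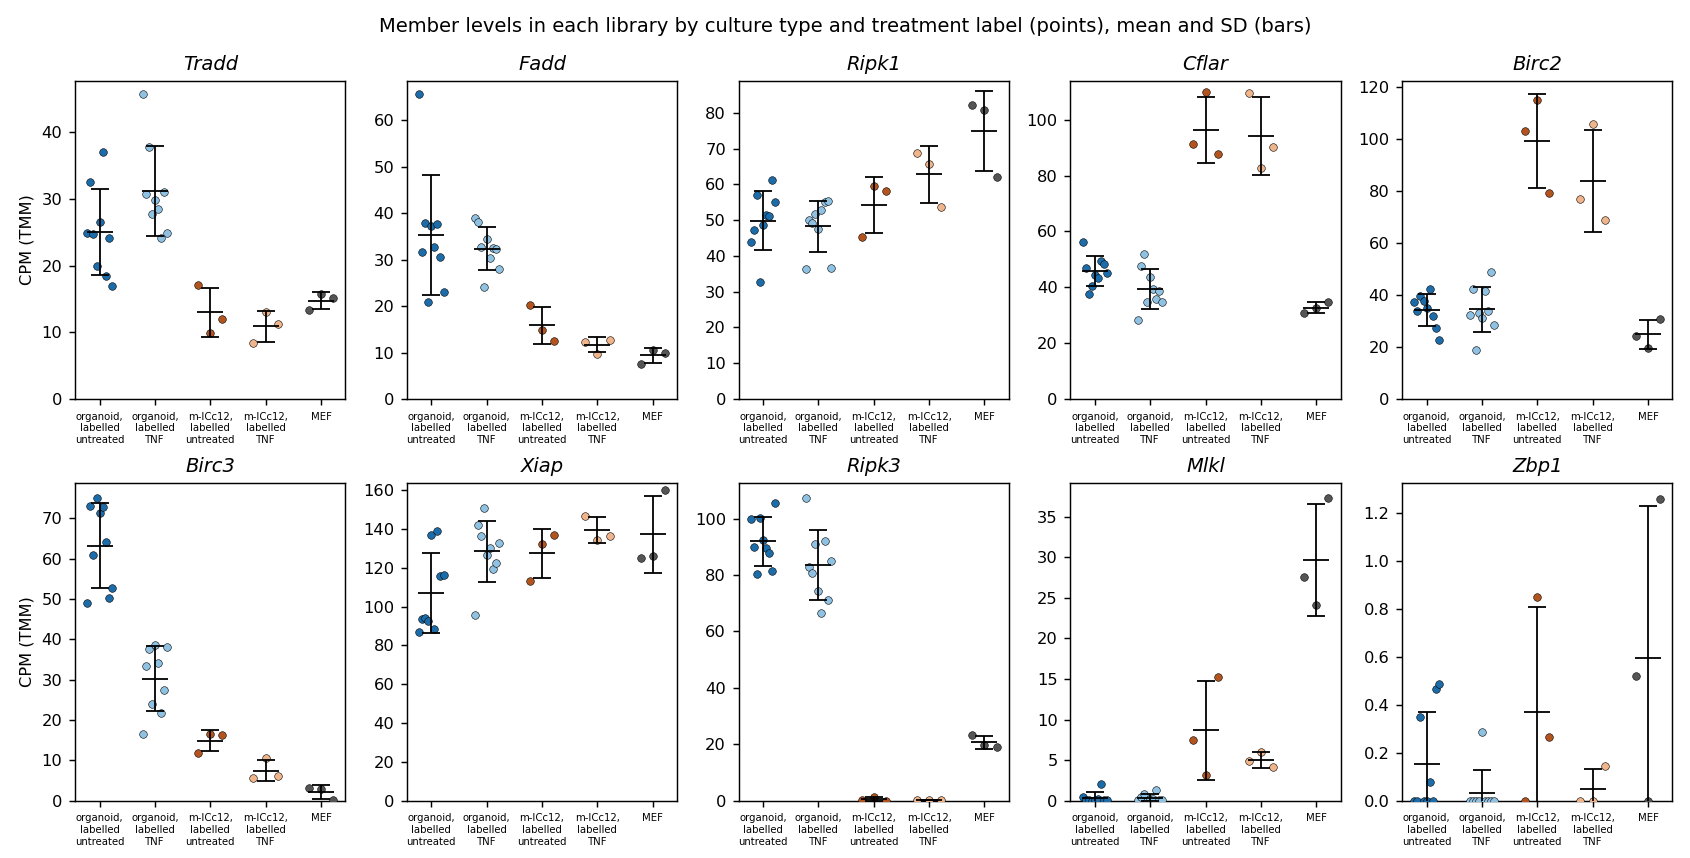
Level of each of the 10 members in every library (CPM after TMM scaling, linear axis from 0), by culture type and treatment label; points are libraries and bars the mean and SD of each group. Ripk3 lies between 66.7 and 107 CPM in the 18 organoid libraries and at no more than 1.44 CPM in the 6 m-ICc12 libraries, and Birc3 is the member whose organoid groups do not overlap by label.

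By edgeR's quasi-likelihood F-test with Benjamini-Hochberg adjustment over all genes tested, 7 of 10 members differed between organoids and m-ICc12 cells, where 60.9% of the 12962 genes tested did. Of these, 4 were higher and 3 lower in organoids (31.6% and 29.3% of all genes tested). Between organoids and MEFs it was 7 of 10 (67.2% of 13144 genes), with 5 higher and 2 lower in organoids (34.6% and 32.6%). Between m-ICc12 cells and MEFs it was 6 of 10 (59.3% of 12830 genes), with 3 higher and 3 lower in m-ICc12 cells (28.1% and 31.2%). These shares are close to the background of each comparison, so that the number of members called is not a result about them, and their direction and size are described instead. The median log2 fold change over the members was -0.17 between organoids and m-ICc12 cells, 0.49 between organoids and MEFs, and -0.19 between m-ICc12 cells and MEFs, beside 0.026, 0.026 and -0.055 over all genes tested. These 3 comparisons share libraries and are not independent of each other. All of them use the libraries labelled untreated, and the values with the organoid and m-ICc12 libraries labelled TNF-treated in their place are given wherever a call changed.

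**Figure D2:**
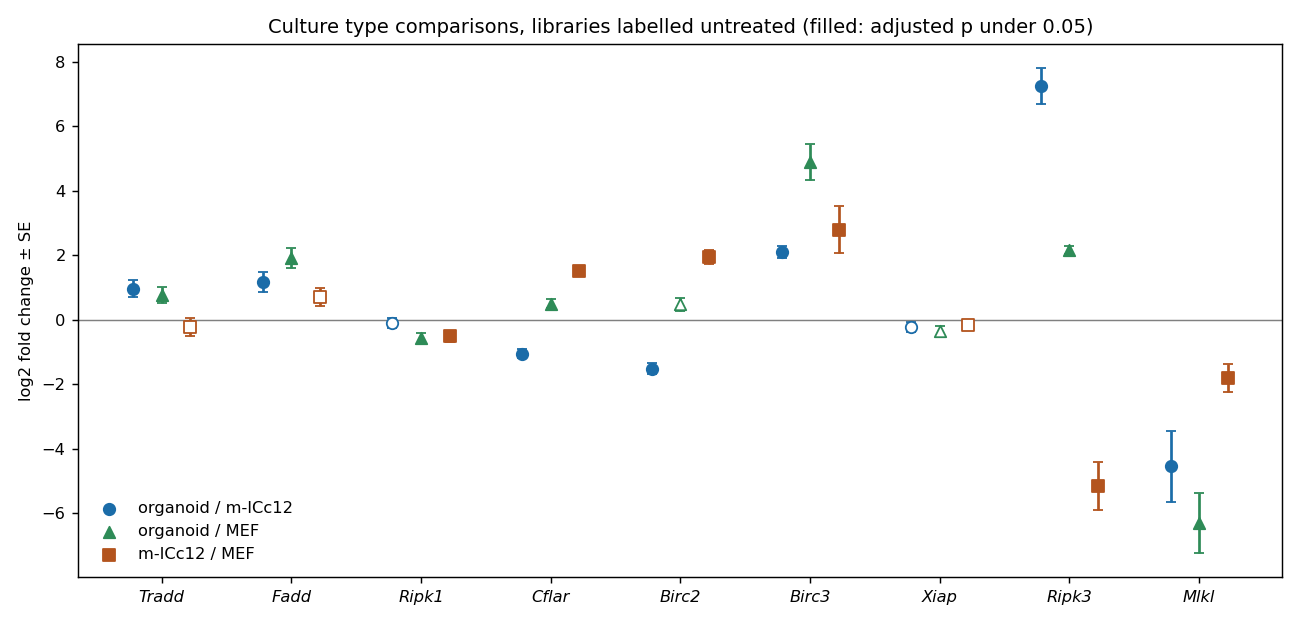
Log2 fold change with standard error of 9 members between culture types (circles, organoids over m-ICc12 cells; triangles, organoids over MEFs; squares, m-ICc12 cells over MEFs), with filled symbols for an adjusted p under 0.05. Ripk3 stands at 7.25 and Mlkl at -4.54 between organoids and m-ICc12 cells, while Xiap lies between -0.34 and -0.15 and is not called in any of the 3 comparisons. Ripk3 in m-ICc12 cells and Mlkl in organoids were below the filter on low counts and were tested only through the other group.

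Per length of exon, the order of the members differed between the culture types. This length joins all annotated exons of a gene and is not that of the transcripts present, so the order between genes is approximate. In organoids labelled untreated Ripk3 led with a mean level of 40.1 CPM per kb, followed by Tradd (13.4), Birc3 (12.6), Xiap (11.3), Fadd (9.03), Birc2 (7.46), Ripk1 (5.97) and Cflar (3.61), with Mlkl at 0.156 and Zbp1 at 0.0436. The lowest Ripk3 value, 35.1 CPM per kb, lay above the highest of Tradd, 19.8, whereas the ranges of Tradd, Birc3, Xiap and Fadd overlapped. In organoids labelled TNF-treated the order was Ripk3 (36.4 CPM per kb), Tradd (16.7), Xiap (13.6), Fadd (8.29), Birc2 (7.53), Birc3 (6.03), Ripk1 (5.79) and Cflar (3.11), with Birc3 moving from the third to the sixth place. In m-ICc12 cells labelled untreated Birc2 led with 21.6 CPM per kb, ahead of Xiap (13.5), Cflar (7.60), Tradd (6.97), Ripk1 (6.51), Fadd (4.07), Mlkl (3.76) and Birc3 (2.97), and Ripk3 stood at 0.255. With the label TNF the order in m-ICc12 cells differed in that Ripk1 (7.52) led Cflar (7.44) and Tradd (5.83), with Birc2 (18.3) and Xiap (14.7) still first. The ranges of Ripk1, Cflar and Tradd overlapped there. In MEFs Xiap (14.5) and Mlkl (12.9) led with overlapping ranges, before Ripk3 (9.03), Ripk1 (8.99) and Tradd (7.90), and Birc3 stood at 0.412 CPM per kb.

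Ripk3 (ENSMUSG00000022221, chromosome 14 from 55784995 to 55788865), the kinase of the necrosome, was the member with the widest difference between culture types. Its level ranged from 80.5 to 106 CPM (median 89.8) in the 9 organoid libraries labelled untreated and from 66.7 to 107 CPM (median 83.0) in those labelled TNF-treated. In m-ICc12 cells it was 0.263 (M1), 1.44 (M2) and 0.0480 CPM (M3) in the libraries labelled untreated and 0.348, 0.215 and 0.0960 CPM in those labelled TNF-treated, and 3 of these 6 libraries held at most 3 counts. In MEFs it was 23.2 (R1), 19.9 (R2) and 18.9 CPM (R3). The 3 culture types did not overlap in any pair, with organoids highest and m-ICc12 cells lowest. The log2 fold change was 7.25 ± 0.55 (standard error) between organoids and m-ICc12 cells, 2.17 ± 0.13 between organoids and MEFs, and -5.15 ± 0.74 between m-ICc12 cells and MEFs (adjusted p = 8.0e-09, 5.3e-10 and 6.4e-05, edgeR). In m-ICc12 cells Ripk3 was below the filter on low counts (10 counts or more in at least 50% of the libraries of a group). It entered the comparisons with m-ICc12 cells only through organoids or MEFs, where it was high. The p-values of these comparisons are therefore no separate support for the difference. The m-ICc12 values rest largely on M2, whose library labelled untreated held 66 counts beside 9 in M1 and 2 in M3, and without M2 the log2 fold changes were 9.28 against organoids and -7.15 against MEFs. With the libraries labelled TNF-treated they were 8.76 and -6.75.

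Mlkl (ENSMUSG00000012519, chromosome 8 from 111311797 to 111338177), the pseudokinase that executes necroptosis, was ordered differently, lowest in organoids and highest in MEFs. Its level was between 0 and 2.06 CPM (median 0.100) in organoid libraries labelled untreated and between 0 and 1.32 CPM (median 0.188) in those labelled TNF-treated, and 8 of these 18 libraries held at most 3 counts. The 2 organoid libraries of culture Z917 were the highest of their groups, at 2.06 and 1.32 CPM. In m-ICc12 cells the level was 7.54 (M1), 3.21 (M2) and 15.3 CPM (M3) in libraries labelled untreated and 4.87, 6.01 and 4.13 CPM in those labelled TNF-treated, and in MEFs it was 27.5 (R1), 24.1 (R2) and 37.3 CPM (R3). No library of one culture type reached the range of another. Mlkl was lower in organoids than in m-ICc12 cells by a log2 fold change of -4.54 ± 1.10 and than in MEFs by -6.30 ± 0.93, and lower in m-ICc12 cells than in MEFs by -1.82 ± 0.44 (adjusted p = 0.0019, 1.8e-05 and 0.0031, edgeR). In organoids Mlkl was below the filter on low counts. It entered the comparisons with organoids only through m-ICc12 cells or MEFs, where it was higher. The p-values of these comparisons are no separate support, and the size of the fold changes rests on organoid counts near the floor. Without Z917 the first pair of values became -5.82 and -7.59. Without M3 the value was -3.85 between organoids and m-ICc12 cells and -2.54 between m-ICc12 cells and MEFs, and the last comparison was not called when all 27 libraries entered a single fit (adjusted p = 0.21).

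**Figure D3:**
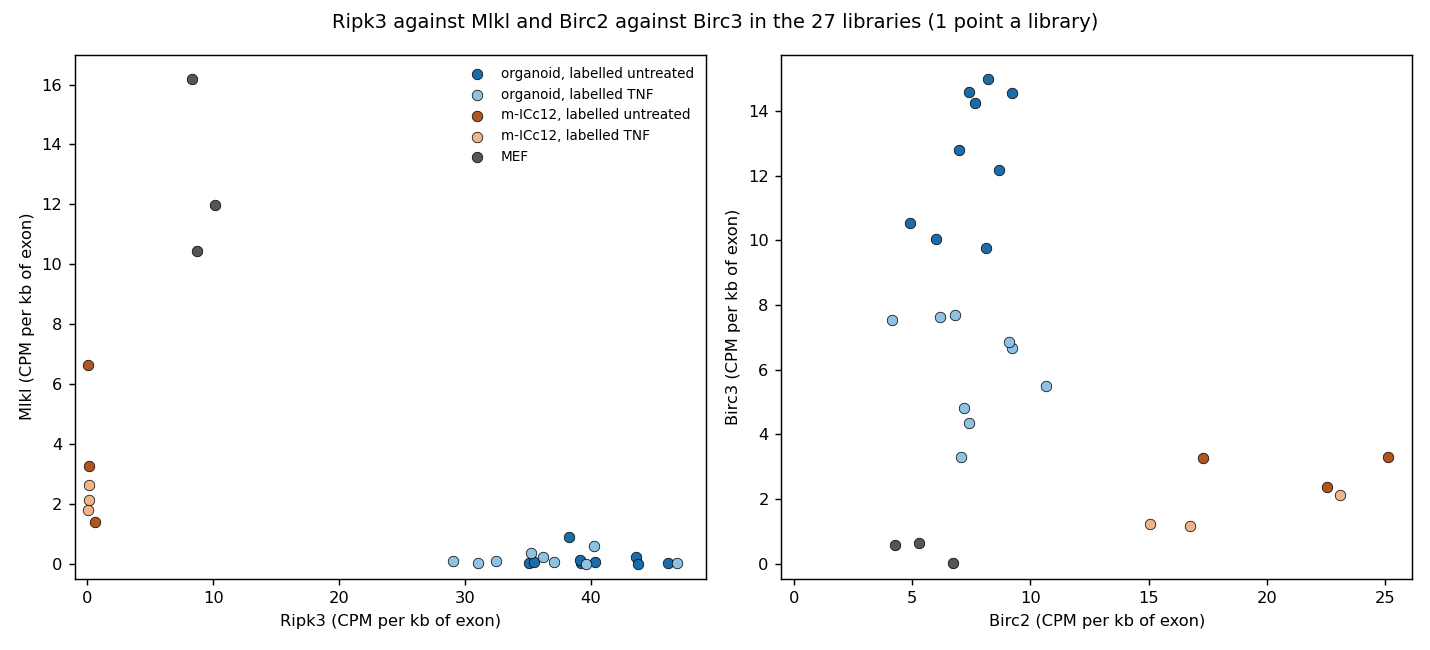
Levels of Ripk3 against Mlkl (left) and of Birc2 against Birc3 (right) in CPM per kb of exon, both axes linear, 1 point for each of the 27 libraries, coloured by culture type and label. Organoids lie along the Ripk3 axis, m-ICc12 cells along the Mlkl axis and MEFs away from both axes; on the right, m-ICc12 cells have the highest Birc2 and organoids the highest Birc3.

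Zbp1 (ENSMUSG00000027514, chromosome 2 from 173206612 to 173218923), the nucleic acid sensor, was at or near the floor throughout. It was at 0 counts in 13 of 18 organoid libraries, in 3 of 6 m-ICc12 libraries and in R2 of the 3 MEF libraries. The highest values were 0.488 CPM in organoids (Z919 labelled untreated), 0.851 CPM in m-ICc12 cells (M2 labelled untreated) and 1.26 CPM in MEFs (R3). At most 39 reads were counted on Zbp1 in any library, and no fold change is given for it.

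Among the cIAP genes, Birc2 (ENSMUSG00000057367), which encodes cIAP1, was at 22.5 to 42.3 CPM (median 35.0) in organoids labelled untreated. It was at 103 (M1), 115 (M2) and 79.3 CPM (M3) in m-ICc12 cells labelled untreated, and at 24.2 (R1), 19.6 (R2) and 30.8 CPM (R3) in MEFs. All 6 m-ICc12 libraries lay above all libraries of the other culture types. Birc2 was lower in organoids than in m-ICc12 cells by a log2 fold change of -1.52 ± 0.17, and higher in m-ICc12 cells than in MEFs by 1.94 ± 0.21 (adjusted p = 7.8e-07 and 3.7e-06, edgeR). The difference between organoids and MEFs, 0.47 ± 0.21, was not called (adjusted p = 0.052), and it was called without Z918, Z919 or R3 in turn.

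Birc3 (ENSMUSG00000032000), which encodes cIAP2 and is a known NF-κB target, was ordered differently. It was at 48.9 to 75.1 CPM (median 64.1) in organoids labelled untreated, at 11.9 (M1), 16.5 (M2) and 16.3 CPM (M3) in m-ICc12 cells labelled untreated, and at 3.25 (R1), 2.86 (R2) and 0.0764 CPM (R3) in MEFs. These groups did not overlap, and R3, with 2 counts, was far below the other MEF libraries. The log2 fold change was 2.11 ± 0.19 between organoids and m-ICc12 cells, 4.90 ± 0.56 between organoids and MEFs and 2.79 ± 0.73 between m-ICc12 cells and MEFs (adjusted p = 8.4e-08, 9.9e-07 and 0.0052, edgeR). Since Birc3 also moved with the label, the same comparisons with the libraries labelled TNF-treated gave 1.98, 3.84 and 1.85, and the last was not called (adjusted p = 0.11). The order of the cIAP genes within organoids depended on the label. The mean level per length was 12.6 (Birc3) and 7.46 CPM per kb (Birc2) in organoids labelled untreated, but 6.03 and 7.53 CPM per kb in those labelled TNF-treated. In m-ICc12 cells Birc2 was above Birc3 with either label (21.6 and 2.97 CPM per kb labelled untreated, 18.3 and 1.496 CPM per kb labelled TNF-treated).

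Cflar (ENSMUSG00000026031, chromosome 1 from 58711508 to 58758884), the brake on caspase-8, was at 37.7 to 56.1 CPM (median 45.2) in organoids labelled untreated. It was at 91.2 (M1), 110 (M2) and 87.8 CPM (M3) in m-ICc12 cells labelled untreated and at 30.7 (R1), 32.7 (R2) and 34.8 CPM (R3) in MEFs. The m-ICc12 libraries of either label stood above all others. Cflar differed by -1.05 ± 0.13 on the log2 scale between organoids and m-ICc12 cells and by 1.51 ± 0.16 between m-ICc12 cells and MEFs (adjusted p = 2.4e-06 and 3.1e-06, edgeR). The difference of 0.50 ± 0.14 between organoids and MEFs (adjusted p = 0.0057) was lost with the organoid libraries labelled TNF-treated, where it was 0.27 (adjusted p = 0.16). Xiap (ENSMUSG00000025860, chromosome X from 42059679 to 42109656), the inhibitor of executioner caspases, was at 86.9 to 139 CPM (median 94.3) in organoids, at 113, 133 and 137 CPM in m-ICc12 cells (M1 to M3) with the same label and at 125, 126 and 160 CPM in MEFs (R1 to R3). Its groups overlapped, and the log2 fold changes of -0.23 ± 0.15, -0.34 ± 0.15 and -0.15 ± 0.15 were not called (adjusted p = 0.20, 0.058 and 0.41, edgeR).

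Of the receptor-proximal adaptors, Fadd (ENSMUSG00000031077, chromosome 7 from 144577318 to 144582463), which links the complex to caspase-8, was at 20.9 to 65.5 CPM (median 32.7) in organoids labelled untreated, at 20.3 (M1), 15.0 (M2) and 12.4 CPM (M3) in m-ICc12 cells with this label and at 7.65 (R1), 10.6 (R2) and 10.0 CPM (R3) in MEFs. The lowest organoid library was above the highest of either other culture type. Fadd was higher in organoids by 1.17 ± 0.30 against m-ICc12 cells and by 1.92 ± 0.32 against MEFs on the log2 scale (adjusted p = 0.0032 and 5.4e-05, edgeR). The value between m-ICc12 cells and MEFs, 0.70 ± 0.29, was not called (adjusted p = 0.052), but it was with DESeq2 (adjusted p = 0.038) and in the single fit of all libraries (adjusted p = 0.023).

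Tradd (ENSMUSG00000031887, chromosome 8 from 105258286 to 105264609), the adaptor that TNFR1 recruits first, was at 16.9 to 37.0 CPM (median 24.7) in organoids labelled untreated, at 17.1 (M1), 9.93 (M2) and 11.9 CPM (M3) in m-ICc12 cells with this label and at 13.3 (R1), 15.8 (R2) and 15.2 CPM (R3) in MEFs. The organoid range just met that of m-ICc12 cells and lay above the MEFs. It was higher in organoids by 0.97 ± 0.27 against m-ICc12 cells and by 0.78 ± 0.25 against MEFs (adjusted p = 0.0060 and 0.012, edgeR), and the latter was lost without R1 (adjusted p = 0.057). Ripk1 (ENSMUSG00000021408, chromosome 13 from 34002363 to 34037147), the kinase shared by survival and death complexes, was at 32.7 to 61.3 CPM (median 51.2) in organoids, at 45.3, 59.5 and 58.3 CPM in m-ICc12 cells (M1 to M3) with this label and at 82.2, 80.8 and 62.1 CPM in MEFs (R1 to R3). No organoid library reached the MEFs, and the m-ICc12 libraries labelled untreated lay below R3 as well, whereas M1 (68.8 CPM) and M2 (65.8 CPM) labelled TNF-treated lay above R3. Ripk1 was lower than in MEFs by -0.58 ± 0.16 in organoids and by -0.51 ± 0.17 in m-ICc12 cells (adjusted p = 0.0045 and 0.021, edgeR). The m-ICc12 value lost its call with the libraries labelled TNF-treated (-0.26, adjusted p = 0.22), in the single fit of all libraries and without M1, R1 or R2. Ripk1 did not pass between organoids and m-ICc12 cells (-0.11 ± 0.17, adjusted p = 0.60), but did with the libraries labelled TNF-treated (-0.38, adjusted p = 0.032).

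The second question was which members moved with the treatment label within organoid cultures. Of the members, 8 of 10 passed the filter on low counts, Mlkl and Zbp1 being below it, and 1 of them, Birc3, was called where 1.39% of the 12104 genes tested were. Birc3 was 64.1 CPM at the median (48.9 to 75.1) in the 9 libraries labelled untreated and 33.3 CPM (16.5 to 38.5) in the 9 labelled TNF-treated, and the groups did not overlap. It was higher in the library labelled untreated in 9 of 9 cultures, as were 1.87% of all genes tested, with ratios from 1.38 in Z919 to 3.12 in Z911 (median 2.13). The log2 fold change was 1.07 ± 0.15 (adjusted p = 3.5e-05, edgeR), and 1.10 ± 0.12 with the culture as a replicate block (adjusted p = 3.2e-08). It was between 1.00 and 1.15 when each culture was left out. In the single fit of all 27 libraries it was 1.06 ± 0.27 and just missed the threshold (adjusted p = 0.052).

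**Figure D4:**
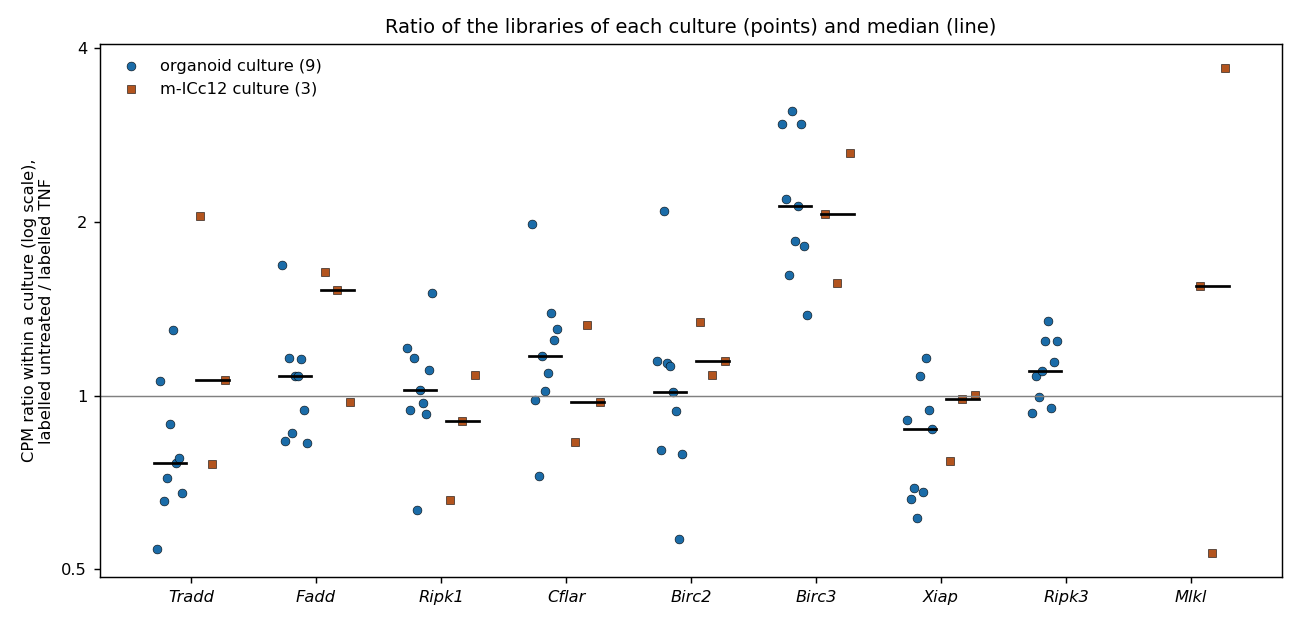
Ratio of the CPM in the library labelled untreated to that in the library labelled TNF-treated within each culture (log axis; circles, 9 organoid cultures; squares, 3 m-ICc12 cultures; lines, medians). Ratios of Zbp1, of Ripk3 in m-ICc12 cells and of Mlkl in organoids are left out because many counts are at or near the floor, and Birc3 lies above 1 in all 12 cultures.

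The same difference was present at each facility. Birc3 was 61.0 ± 12.1 CPM (SD, n = 3) in SR organoids labelled untreated and 29.2 ± 11.2 CPM in those labelled TNF-treated, 73.1 ± 1.88 and 32.3 ± 7.40 CPM in SE, and 55.7 ± 7.40 and 29.2 ± 8.36 CPM in GF. The groups did not overlap at any facility. Its neighbour Birc2 did not follow, with 34.2 ± 6.15 and 34.5 ± 8.74 CPM (SD, n = 9 each) in organoids labelled untreated and TNF-treated, a log2 fold change of -0.01 ± 0.15 (adjusted p = 0.99, edgeR). Birc2 was higher in the library labelled untreated in 5 of 9 cultures, with ratios from 0.563 in Z918 to 2.09 in Z910.

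None of the other tested members passed the threshold by label in organoids. Xiap was at a median of 94.3 CPM in libraries labelled untreated and 130 CPM in those labelled TNF-treated, with a log2 fold change of -0.26 ± 0.10 (adjusted p = 0.39, edgeR), and was lower in the library labelled untreated in 7 of 9 cultures. Tradd had medians of 24.7 and 29.8 CPM and a log2 fold change of -0.31 ± 0.16 (adjusted p = 0.58), with the same direction in 7 of 9 cultures. Both groups of libraries overlapped for Xiap and for Tradd. Cflar went the other way in 7 of 9 cultures, at 0.22 ± 0.11 (adjusted p = 0.60). Ripk3 stood at 0.14 ± 0.09, Fadd at 0.13 ± 0.16 and Ripk1 at 0.05 ± 0.11 (adjusted p = 0.73, 0.93 and 0.97, edgeR). The median log2 fold change was 0.09 over the 8 members tested and 0.00031 over all genes tested.

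Among the organoid libraries labelled untreated, Ripk3 was also the steadiest member. Its coefficient of variation over the 9 libraries labelled untreated was 9.36%, the lowest of the 10 members, followed by Cflar with 11.7%, and that of Fadd was 36.6%, with Z908 at 65.5 CPM and the other 8 libraries at 20.9 to 38.0 CPM. In the libraries labelled TNF-treated it was 14.8% for Ripk3, with Xiap (12.2%), Fadd (14.3%) and Ripk1 (14.8%) at the same level or below.

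In m-ICc12 cells, 9 of 10 members passed the filter, Ripk3 being below it, and none was called, where 13 of 11861 genes tested (0.11%) were. At an unadjusted p under 0.05 there were 556 genes over all, of which Birc3 was the only member. Birc3 was at 11.9, 16.5 and 16.3 CPM (M1 to M3) in the libraries labelled untreated and at 5.74, 10.5 and 6.19 CPM in those labelled TNF-treated. The groups did not overlap, and Birc3 was higher in the library labelled untreated in 3 of 3 cultures, as were 13.2% of all genes tested. Its log2 fold change was 0.97 ± 0.36 (adjusted p = 0.996, edgeR; 0.63 with DESeq2). It passed the thresholds used by the study, which take the unadjusted p up to 0.05 together with a log2 fold change from 0.5 upwards in size. Birc2 was also higher in 3 of 3 cultures, with ratios of 1.09 to 1.34 and a log2 fold change of 0.23 ± 0.20 (adjusted p = 0.996, edgeR). Mlkl was higher in the library labelled untreated in M1 and M3 and lower in M2. The other members tested had log2 fold changes between -0.22 (Ripk1) and 0.44 (Fadd), except Zbp1, for which none is given. The median was 0.23 over the 9 members tested, beside 0.0057 over all genes.

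Whether the label response differed between organoids and m-ICc12 cells was tested as an interaction over 18 and 6 libraries. None of the 10 members was called, where 21 of 13183 genes (0.159%) were, and 857 genes had an unadjusted p under 0.05. However, Ripk3 in m-ICc12 cells and Mlkl and Zbp1 in organoids were below the filter on low counts. They entered only through the other culture type, so for these members the interaction cannot decide. For Birc3 the difference of the log2 fold changes was 0.11 ± 0.32 (adjusted p = 1.0, edgeR). The largest difference among members with a fold change given, that of Ripk3 (-1.53 ± 0.72, adjusted p = 0.74), rested on the 66 counts of M2 labelled untreated, since it was 0.21 without M2.

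The third question was whether the microbiota of the donor marked these genes. Between 3 GF and 6 SPF organoid libraries labelled untreated, none of the 9 members tested was called, where 4 of 12315 genes (0.0325%) were, and 491 genes had an unadjusted p under 0.05 (21 genes were called with DESeq2). Among these members, Zbp1 passed the filter only through GF libraries labelled untreated, here and for the label response. Birc2 was at 22.5, 27.5 and 32.0 CPM in GF and at 33.9 to 42.3 CPM in SR and SE libraries, so that the groups did not overlap, but its log2 fold change of -0.47 ± 0.19 was not called (adjusted p = 1.0, edgeR) and was 0.15 in the libraries labelled TNF-treated. Ripk3 was 91.6 ± 12.6 CPM in GF, 90.1 ± 9.75 CPM in SR and 94.1 ± 5.49 CPM in SE libraries labelled untreated (SD, n = 3 each), with a log2 fold change of -0.01 ± 0.14. The label response did not differ detectably between GF and SPF organoids either, with 0 of 9 members and 0 of 12640 genes called (0%; 323 genes at an unadjusted p under 0.05, 1 gene called with DESeq2). For Birc3 the difference of the responses was -0.20 ± 0.31, and for Birc2 it was -0.62 ± 0.30 (adjusted p = 1.0 each, edgeR).

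The other genes of the pathway were taken from lists by role. These lists were chosen with earlier results of these data known, so the number of their genes called is not a test of them. In the TNF receptor signalling complex, 4 of 22 genes tested were higher in organoid libraries labelled untreated and none was lower (1.26% and 0.124% of all genes tested). These were Tnfaip3, which encodes the deubiquitinase A20 (2.91-fold, 52.5 ± 5.72 against 18.1 ± 3.59 CPM, SD, n = 9 each), the A20-binding Tnip1 (1.93-fold), the IκB kinase family member Ikbke (2.02-fold) and Spata2, a partner of the deubiquitinase CYLD (1.53-fold; adjusted p = 3.5e-09, 8.6e-07, 9.5e-07 and 0.010, edgeR). Tnfaip3 was one of the genes used above to check the labels. In m-ICc12 cells Tnfaip3 was the single gene called of 23, at 3.14-fold (adjusted p = 0.016), and Ikbke and Tnip1 stood at 2.18- and 1.64-fold without passing (adjusted p = 0.095 and 0.40).

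Of the death ligands and receptors, 2 of 9 tested were higher in organoid libraries labelled untreated and none was lower, where 1.26% and 0.124% of all genes tested were, as for the lists that follow. Tnf itself was at 5.37 to 21.1 CPM (median 10.8) in these libraries and at 0 to 2.17 CPM (median 0.627) in those labelled TNF-treated (adjusted p = 0.00012, edgeR), and no count fell on it in any m-ICc12 or MEF library. Tnfsf10, the death ligand TRAIL, was at 63.1 to 93.7 CPM (median 67.4) and at 37.4 to 57.3 CPM (median 48.1; adjusted p = 0.00027), and at no more than 0.611 CPM in any m-ICc12 or MEF library. Further genes higher in organoid libraries labelled untreated were Bid, a caspase-8 substrate (1.57-fold, 1 of 12 caspases and mitochondrial death genes tested), Bcl2l1, which encodes the survival protein Bcl-xL (1.64-fold, 1 of 6), and the transcription factor Irf1 (2.62-fold, 1 of 6 interferon signalling factors; adjusted p = 0.021, 0.00011 and 1.1e-05). None of the 10 necroptosis modulators, such as Hsp90aa1, Ppm1b or Chmp2a, was called in either label comparison.

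Of 4 markers of intestinal stem cells, Olfm4 (3.54-fold) and Ascl2 (3.25-fold) were higher in the organoid libraries labelled untreated (adjusted p = 0.00024 and 3.5e-05, edgeR). The other two, Lgr5 and Smoc2, were not called, with log2 fold changes of -0.06 ± 0.20 and -0.11 ± 0.10 (adjusted p = 0.98 and 0.89). Olfm4 was at 560 to 1887 CPM in the libraries labelled untreated and at 129 to 681 CPM in those labelled TNF-treated, and the sum of the 4 ranged from 1073 to 2865 CPM there and from 716 to 1687 CPM in those labelled TNF-treated. None of the 5 Paneth cell, 5 goblet cell, 5 enterocyte, 3 enteroendocrine or 3 tuft cell markers was called. The part of cell composition in the Birc3 difference was not tested.

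Between culture types, the same lists held genes in both directions. Of the 23 genes of the TNF receptor signalling complex, 5 were higher and 7 lower in organoids than in m-ICc12 cells (31.6% and 29.3% of all genes tested), and 7 were higher and 10 lower than in MEFs (34.6% and 32.6%). Ikbke was 2.73-fold higher in organoids than in m-ICc12 cells and 16.4-fold higher than in MEFs (adjusted p = 2.9e-06 and 7.3e-11, edgeR). Traf1, a partner of the cIAPs, had no count in any organoid library, against 0.840 to 2.57 CPM in m-ICc12 cells labelled untreated and 3.63 to 6.12 CPM in MEFs, but it had no count in the m-ICc12 libraries labelled TNF-treated either. Casp8, the protease that Fadd and Cflar bind, was at 99.4 ± 15.9 CPM in organoids labelled untreated, 100.4 ± 2.41 CPM in m-ICc12 cells with this label and 49.9 ± 5.36 CPM in MEFs, and was higher in organoids and m-ICc12 cells than in MEFs (adjusted p = 2.6e-05 and 8.6e-05). Bcl2l1 was 4.10-fold lower in organoids than in m-ICc12 cells (adjusted p = 1.4e-09, edgeR).

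Other inputs of Ripk3 differed between the culture types too. Tlr4, the endotoxin receptor, was at 44.8 to 52.1 CPM in m-ICc12 cells labelled untreated and 11.3 to 16.5 CPM in MEFs, and at 0 to 4.03 CPM (median 0.0667) in organoids with this label. Tlr3, which senses double-stranded RNA, was at 12.5 ± 3.50 CPM in organoids, 8.53 ± 0.724 CPM in m-ICc12 cells and 1.30 ± 0.677 CPM in MEFs. Of the 10 necroptosis modulators, 6 were higher and 1 (Hsp90aa1, a chaperone of Ripk kinases, 2.03-fold) was lower in organoids than in m-ICc12 cells, where 31.6% and 29.3% of all genes tested were, with a list median of 0.42 on the log2 scale beside 0.026 over all genes.

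Over the 27 libraries, the genes whose log2 CPM followed Ripk3 most closely were Chic1, Tspan7 and Smoc2 (Pearson's r = 0.99 each). Those nearest to Mlkl were Syne1, Timp1 and Runx2 (r = 0.94, 0.93 and 0.93), those nearest to Birc3 were Slc2a9, Nadsyn1 and Rnf128 (r = 0.94, 0.94 and 0.93), and Zbp1, mostly at 0, had no gene above r = 0.75 (Ddx25). These correlations describe libraries that fall into 3 culture types and share the cultures of origin.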

How the data were processed

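Poly-A RNA was sequenced from TruSeq libraries, called stranded in the labels but not in the methods of the study. Per these methods and the labels, reads were trimmed with Trimmomatic and aligned to GRCm38 with STAR. The submitters' processing notes list STAR 2.5.4b and featureCounts, the methods GenomicRanges, as the counter. How strand and multiply aligned reads were treated is not given in the sources used here. The deposited values are counts, whole numbers without normalization. Ensembl gene identifiers were matched to GENCODE vM21 (22214 of 22524 with a symbol), and its union exon lengths gave CPM per kb. Proteome data were not analysed here.

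Levels are CPM with TMM factors over 27 libraries. Genes were tested where 50% or more of the libraries of any group held 10 counts or more, with edgeR 4.0.16 (quasi-likelihood F-test, TMM, no covariate, only the groups compared; R 4.3.3), and called at a Benjamini-Hochberg adjusted p under 0.05 over all genes tested. The standard error is the log2 fold change over the root of F. Log2 CPM for correlations used a prior count of 2. Condition followed the sample label. Libraries of a culture share its code in the titles, and organoid pairs come from the same mouse; deviations from the label mean correlated with r = 0.171 on average (0.082 to 0.31) within the 9 organoid pairs and r = 0.031 (-0.0067 to 0.0925) within the 3 m-ICc12 pairs. The scripts were checked beforehand on simulated counts in which 200 genes were changed. Members and lists were chosen with earlier results of these data known. Named were the 10 members, called genes of the receptor complex and death ligand lists by label, up to 4 genes with the smallest p per other list, and the 3 genes most correlated with Ripk3, Mlkl, Zbp1 and Birc3; further genes of the lists were named, and the spelling of the motifs was chosen, after their values were seen; another spelling of the NF-κB motif matched windows of other members. Alternatives were DESeq2 1.42.0, all genes with any count, the study's thresholds, a single fit, the replicate block, the other label, no TMM factors and leaving out each culture; leaving out Lars2 was added after seeing the data.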

Additional observations from a re-analysis of the deposited data

Results flagged for a closer look

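Among the 20 groups of 9 organoid libraries examined (10 members by 2 labels), 3 values stood apart from the others by Dixon's criterion at the 95% level. Chance alone gives this for about 1 in 20 groups of normally distributed values. That rate does not hold for Mlkl and Zbp1, whose counts were at or near the floor. Mlkl was at 2.06 CPM in culture Z917 labelled untreated, with a gap to the next library of 0.747 of the whole range. Fadd was at 65.5 CPM in culture Z908 labelled untreated (gap 0.617 of the range). Zbp1 was at 0.288 CPM in culture Z912 labelled TNF-treated, the only library of its group with any count on the gene, at 9 counts. The gap is then the whole range whatever the value. No member's label response was called as different between organoids and m-ICc12 cells or between GF and SPF organoids. Where Ripk3, Mlkl or Zbp1 was near the floor in a group compared, the test cannot decide.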

How the results depend on the processing

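The number of members called kept within 1.5 times its value under every alternative except 3. In organoids by label it was 0 instead of 1 in the single fit of all libraries. By the study's thresholds it was 1 instead of 0 in m-ICc12 cells by label (Birc3). By the same thresholds it was 1 instead of 0 for the response difference between organoids and m-ICc12 cells (Ripk3, near the floor in the latter). It was 7 without each culture in turn between organoids and m-ICc12 cells, 6 to 8 between organoids and MEFs, and 5 to 7 between m-ICc12 cells and MEFs. Zbp1, for which no fold change is given, was called between organoids labelled TNF-treated and MEFs. Of the 973 alternative log2 fold changes of members, 921 kept their direction and side of the threshold, 11 lost and 15 gained a call, and 26 changed sign, none of them called. The replicate block changed no member's call, but turned Birc2 in organoids by label (0.0083) and Ripk3 in the GF against SPF response (-0.0044). The libraries labelled TNF-treated turned Xiap between m-ICc12 cells and MEFs (0.021), and Cflar (-0.18), Birc2 (0.15) and Xiap (-0.068) between GF and SPF origin. Leaving out cultures gave log2 fold changes from -0.011 to 0.12 (Ripk1), -0.0012 to 0.18 (Fadd) and -0.12 to 0.10 (Birc2) in organoids by label, and from -0.036 to 1.33 (Mlkl), -0.15 to 0.53 (Tradd) and -0.18 to 0.19 (Cflar) in m-ICc12 cells by label. For the response difference between organoids and m-ICc12 cells they ran from -1.99 to 0.21 (Ripk3), -1.50 to 0.023 (Mlkl) and -0.16 to 0.32 (Birc3), for that between GF and SPF from -0.086 to 0.12 (Ripk3) and -0.48 to 0.086 (Birc3), and for GF against SPF origin from -0.14 to 0.057 (Ripk3). The first Ripk3 range and the Mlkl range each rest on a culture type near the floor. The causes of these turns were not tested.

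Over all genes, 168 were called in organoids by label, 397 with the replicate block and 352 by the study's thresholds. In m-ICc12 cells by label the 13 calls became 46 with DESeq2, 445 by the study's thresholds, 30 with all genes that had a count, 26 in the single fit, 6 with the block and 15 to 93 without each culture (93 without M2). The 21 calls of the response difference between these culture types became 70 with DESeq2, 748 by the study's thresholds, 10 in the single fit, 103 with the block and 11 to 40 without each culture (11 without M2, 40 without M3), the 0 calls of the GF against SPF response became 273 by the study's thresholds and 1 with DESeq2, and the 4 calls of origin became 21 with DESeq2, 313 by the study's thresholds, 26 in the single fit and 2 to 5 without each culture (2 without Z917, Z918 or Z919). DESeq2 gave no p for Ripk3 between organoids and m-ICc12 cells. Leaving Lars2 out of the counts changed no member's call. The 50 group means without TMM factors moved by less than 1 SD. With m-ICc12 libraries at 3 per group and 6071103 counts in the shallowest, differences of Ripk3, Mlkl and Zbp1 near the floor are limited by depth.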
